A study of Bos taurus with 15 samples.

Results

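The genes of the mitochondrial ribosome, and DAP3 among them, were described in the thymus of cows given prednisolone and of untreated cows. The members were chosen by gene name in the scanner files, with DAP3 added by name and the treatment difference of these arrays already known. Of 14735 cattle genes with a symbol on the array, 20 had a file name that begins with MRPL or MRPS and a number. These were MRPL2, MRPL9, MRPL11, MRPL12, MRPL13, MRPL16, MRPL18, MRPL20, MRPL30, MRPL32, MRPL43 and MRPL49 of the large subunit, and MRPS7, MRPS9, MRPS14, MRPS17, MRPS18B, MRPS26, MRPS34 and MRPS36 of the small-subunit series. No probe carried the file name DAP3 (0 probes). The probe listed as LOC504320 was matched to DAP3 by its gene number, which made 21 members, each with 1 probe printed in 2 spots. A further 56 genes of the same family stood under other names in the files, mostly locus numbers, and were described separately.

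The mitochondrial ribosome makes the few respiratory chain proteins that mitochondrial DNA encodes. Its subunit proteins are encoded in the nucleus, made in the cytosol and imported, so their transcripts are measured here together with those of all other nuclear genes. Many are counterparts of bacterial ribosomal proteins, others occur in mitochondria only. DAP3 is a GTP-binding protein of the small subunit's head that has also been described as a mediator of cell death and as a partner of the glucocorticoid receptor.

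RNA came from the thymus of 15 Holstein cows, taken at slaughter. Control animals (n = 7) were untreated, and prednisolone animals (n = 8) had been given this synthetic glucocorticoid orally, 30 mg daily to each cow over 35 days. Each array carried the RNA of 1 animal in 1 colour, so a replicate is an animal, and precision is limited by how many arrays there are. All values below are log2 of the background-subtracted signal relative to the 75th percentile of the same array, and each difference is prednisolone minus control. Levels of different probes are not compared.

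The share of bovine spots well above background was 67.1% to 77.7%. Of 21475 bovine probes, 16068 reached that mark on 7 or more of the 15 arrays and were tested. The arrays lay on 4 slides: on slide 1 were controls 1, 2 and 5 with prednisolone animal 6, on slide 2 control 3 with prednisolone animals 3, 5 and 8, and on slide 3 controls 4, 6 and 7 with prednisolone animal 1. Slide 4 held prednisolone animals 2, 4 and 7 and no control, and 840 to 1050 of its spots per array were marked as outliers by the scanner software, against 5 to 17 on the other slides. All 10 measured markers of thymocytes, the T cell precursors that fill the thymus, were well above background on 15 of 15 arrays, CD3D, RAG1 and PTCRA included. In such a tissue sample, fewer cells of a type and less RNA per cell cannot be told apart.

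No direction of difference was shared by the subunit genes other than DAP3. Of the 19 other members that could be tested, 10 were higher and 9 lower with prednisolone, with a median log2 difference of 0.0013, against 49.9% of all tested probes higher and a median of -0.00044. For 13 of the 19 the difference was within 0.1 in either direction. The values ran from -0.32 (MRPL12) to 0.28 (MRPL18). The plot of all members by animal shows how far the groups overlap.

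**Figure D1:**
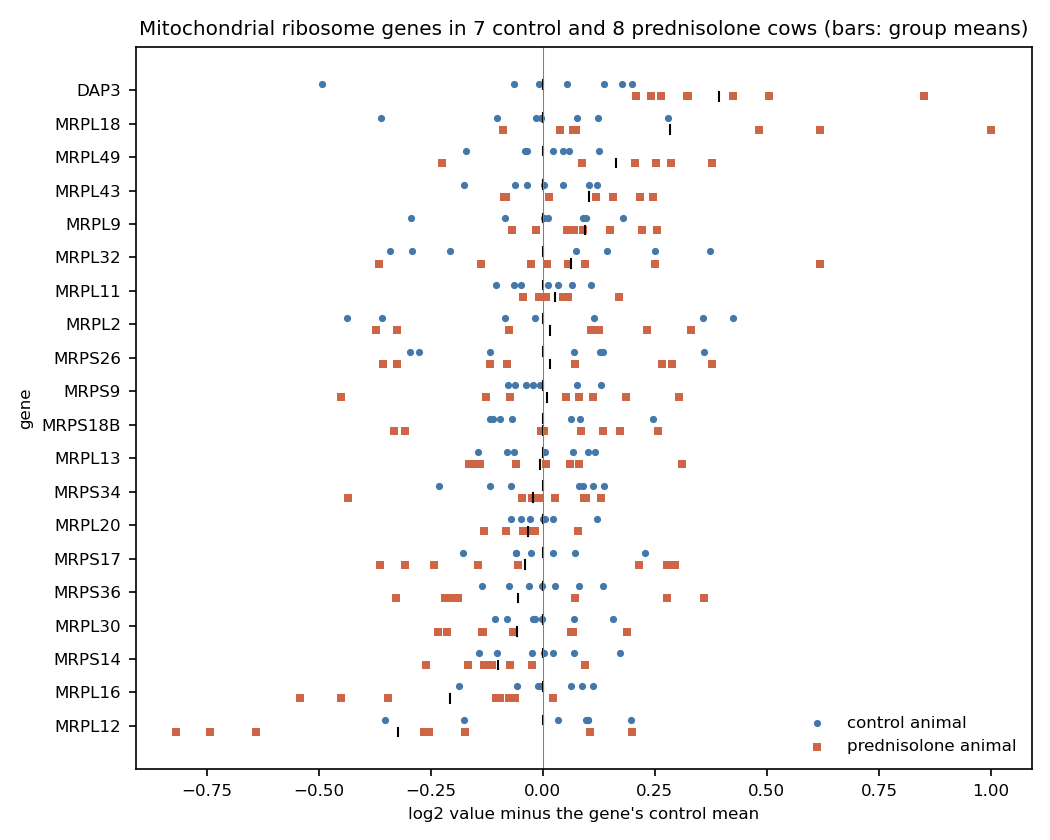
Log2 value of each animal minus the control mean of the same gene (horizontal axis), for the 20 members tested, ordered by their difference. Circles are 7 control and squares 8 prednisolone animals, and black bars are group means. DAP3 at the top is the 1 gene whose groups do not overlap, while the bars of 13 other genes lie within 0.1 of each other.

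No member passed the test over all probes. With limma and Benjamini-Hochberg adjustment, 0 of the 20 members tested had an adjusted p under 0.05, as had 0% of all 16068 probes. At an unadjusted p under 0.05 there were 2 members, DAP3 and MRPL16, against 7.08% of all probes. This count depended on the setting. Without slide 4, a setting chosen after seeing the data, it held 7 of the 19 members other than DAP3, against 1465 of 16068 probes. With array weights it held 4 of the 19, against 1498 of 16068 probes. The groups did not overlap for 1 member, DAP3, against 0.112% of all probes. DAP3 was put on the list with this contrast in view, so its place in these counts is a description of how it was selected.

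DAP3 was higher with prednisolone in these values, but it is a dim probe and its difference depended on how background was removed. The control animals lay at -4.95 at the lowest, -4.40 at the median and -4.25 at the highest. The prednisolone animals lay at -4.24, -4.13 and -3.60. Every prednisolone animal was thus above every control, by 0.01 at the closest point.

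The mean difference of DAP3 was 0.39 ± 0.115 (SE), with a residual SD of 0.22 between animals. No test is attached to it, because the gene was picked for it. It lay at the 97.4th percentile of the 16068 tested probes. Of these, 410 had a larger difference upward and 1539 a larger difference in either direction. Within slides 1, 2 and 3, each with a single animal on 1 side, it was 0.56, 0.39 and 0.19, and it was 0.38 with slide as a block. Without the 3 arrays of slide 4 it was 0.35.

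The DAP3 signal was 23.7 to 115 units per spot, beside a local background of 46 to 65 units. The scanner software nevertheless marked both spots as well above background on all 15 arrays. Expressed as a level, DAP3 stood at 3.25% to 5.25% of the array's 75th percentile in controls and at 5.28% to 8.24% in prednisolone animals. Its pair of spots on an array differed by 0.32 at the median and 0.75 at most on the log2 scale, so that the gap between spots was close to the gap between groups. Taken by spot, the difference was 0.28 at the first and 0.50 at the other. At the first spot the groups overlapped (highest control -4.02, lowest prednisolone animal -4.29), and at the other they were apart by 0.01.

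With another background correction, normexp on the mean and local background signals with an offset of 50, the DAP3 difference was -0.53. That value came from controls 1 and 3, at -0.86 and -1.96, where the other 13 animals lay between -3.00 and -3.46. These arrays held 6 and 5 of the 12 spots on all arrays with a local background above 200. With those 12 spots left out, chosen once these values were known, DAP3 was 0.018 with the offset and 0.19 without it. The groups overlapped in both cases. Without the offset the controls ran from -4.29 to -3.88 and the prednisolone animals from -4.11 to -3.57.

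Other scalings of the background-subtracted signal gave 0.42 (quantile normalization) and 0.41 (centring on the array median). The values the authors deposited, whose normalization is not known, gave 0.47. In those values the groups overlapped, with the highest control (control 7) at 6.16 and the lowest prednisolone animal (animal 5) at 5.87.

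**Figure D2:**
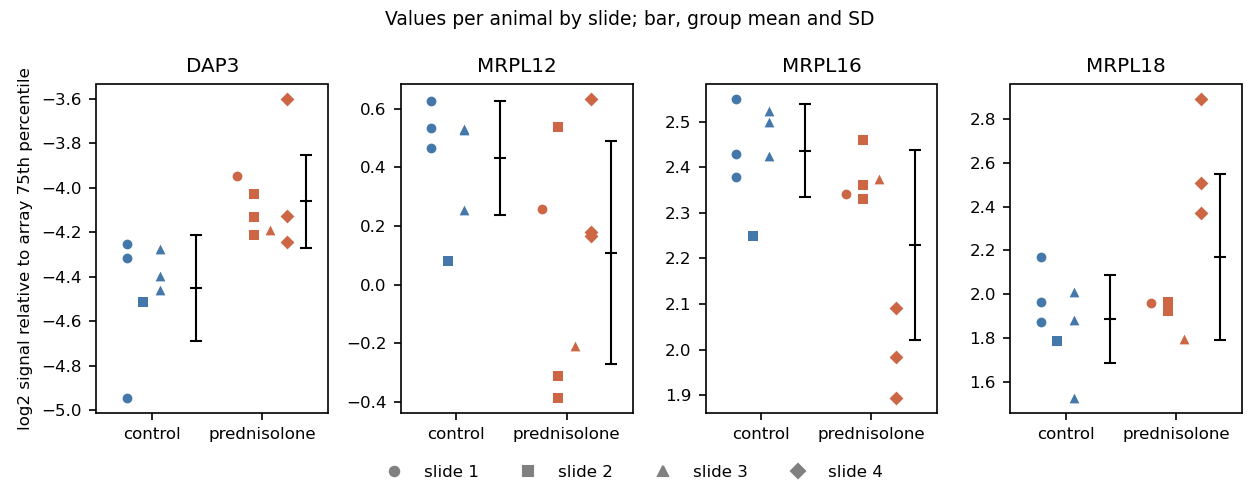
Log2 signal relative to the array's 75th percentile in each animal, by group and slide, for DAP3, MRPL12, MRPL16 and MRPL18. Black bars are the group mean and SD, and each panel has its own vertical scale. In DAP3 the control of slide 1 at -4.95 and the prednisolone animal of slide 4 at -3.60 stand apart, and in MRPL16 and MRPL18 the 3 animals of slide 4 lie beyond the rest of their group.

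Among the large subunit genes, 7 were higher and 5 lower, with a median difference of 0.022. MRPL12 belongs to the stalk that recruits translation factors. Its controls lay at 0.080, 0.53 and 0.63 (lowest, median, highest) and its prednisolone animals at -0.39, 0.17 and 0.63. Prednisolone animals 1, 5 and 8, at -0.21, -0.39 and -0.31, lay below every control.

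The difference of MRPL12 was -0.32 ± 0.154 (SE), the lowest of the members. It was negative within each slide (-0.28, -0.13 and -0.65) and -0.45 without slide 4. Over 30 settings it kept its sign in all 30, from -0.45 to -0.24. It did not pass at an unadjusted p under 0.05 either.

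The differences of MRPL16 and MRPL18 shrank when the animals of slide 4 were left out. That slide has no control, so slide and treatment cannot be told apart on it. Other members moved as well, such as MRPS36 (from -0.056 to -0.23) and MRPS17 (from -0.041 to -0.22). MRPL16, whose bacterial counterpart lies near the entry site of transfer RNA, had controls at 2.25, 2.43 and 2.55 and prednisolone animals at 1.89, 2.34 and 2.46, a difference of -0.21 ± 0.091 (SE). The 3 animals of slide 4 were the lowest. Without them the difference was -0.063, and with slide as a block -0.028.

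MRPL18, a protein of the central protuberance, had controls at 1.53, 1.88 and 2.17 and prednisolone animals at 1.80, 1.96 and 2.89, a difference of 0.28 ± 0.154 (SE). Here the 3 animals of slide 4 were the highest of all 15, with a mean of 2.59 against 1.92 in the other prednisolone animals. Without slide 4 the difference was 0.033. Within slides 1 to 3 it was -0.040, 0.16 and -0.010, so no direction was common to them.

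The slide 4 contrast was chosen after seeing the data and was tested within the prednisolone group. It has a single slide on 1 side, and its p-values measure the spread between animals, not between slides. Of 19 members with enough values, 4 differed between the 3 animals of slide 4 and the other 5 (limma, adjusted p under 0.05), against 15.8% of all probes. Besides MRPL18 (0.67 ± 0.130 SE, adjusted p = 0.0092) and MRPL16 (-0.38 ± 0.093, 0.024), these were MRPS17 (0.48 ± 0.104, 0.014) and MRPS36 (0.47 ± 0.101, 0.015). DAP3 differed by 0.11 ± 0.155 (limma adjusted p = 0.66). Between the 3 controls of slide 3 and the 3 of slide 1, 0 members passed with limma, where 6.15% of all probes did.

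MRPL49, a protein found in mitochondria only, was the member with the next highest difference. Its controls lay at -1.22, -1.02 and -0.92 and its prednisolone animals at -1.27, -0.81 and -0.67, with 5 of 6 prednisolone animals above the control median. The difference was 0.16 ± 0.095 (SE). Prednisolone animals 2 and 4 were left out of this value, because all their spots of the probe were marked as outliers. It was 0.19 with slide as a block, and -0.031 with normexp.

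The other large subunit genes differed less. MRPL43 (0.10 ± 0.073 SE) and MRPL9 (0.095 ± 0.077) were on the higher side within each of slides 1 to 3. MRPL30 was on the lower side there (-0.058 ± 0.074) and was 0.17 with normexp. MRPL32 (0.062), MRPL11 (0.028), MRPL2 (0.017), MRPL13 (-0.0073) and MRPL20 (-0.033, 0.048 with normexp) lay closer to 0.

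The steadiest members were MRPL20, a protein bound to ribosomal RNA, and MRPL11, at the base of the stalk. Their residual SDs between animals were 0.061 and 0.070, against a median of 0.17 over the members and 0.26 over all tested probes. MRPL20 lay between 2.46 and 2.65 in controls and between 2.40 and 2.61 in prednisolone animals. MRPL18 (0.31), MRPL12 (0.31), MRPL2 (0.29) and MRPL32 (0.28) had the largest residual SDs. The spots of MRPL2 and MRPL18 within an array differed by 0.60 and 0.44 at the median, and the cause of their wide spread was not tested.

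Of the 7 small subunit genes tested beside DAP3, with MRPS36 counted by its name, 3 were higher and 4 lower, with a median of -0.021. MRPS14, a protein of the small subunit's head, had controls at 1.81, 1.95 and 2.12 and prednisolone animals at 1.69, 1.83 and 2.05. The groups overlapped over most of their range. The difference was -0.10 ± 0.066 (SE), and 0.018 with normexp.

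MRPS36 (-0.056 ± 0.105 SE) is now known as a component of the oxoglutarate dehydrogenase complex, although its name still places it in the ribosome. It was lower within each of slides 1 to 3 (-0.17, -0.22 and -0.23) and -0.21 with slide as a block. On slide 4 it was higher than in the other prednisolone animals. MRPS17 had the same order of values, with -0.041 ± 0.112 pooled and -0.15 with slide as a block.

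MRPS9 (0.010), MRPS18B (0.0013), MRPS26 (0.016) and MRPS34 (-0.021) lay near 0. MRPS26 and MRPS34 occur in mitochondria only. By origin, the 14 members with a bacterial counterpart had a median of -0.0030 (7 higher and 7 lower). The 5 mitochondria-only members beside DAP3, with MRPS36 counted by its name, had 0.016 (3 higher and 2 lower).

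MRPS7 was not tested, since its probe was well above background on 0 of 7 control arrays and on 4 of 8 prednisolone arrays (animals 2, 4, 7 and 8). Animals 2, 4 and 7 are those of slide 4, which holds no control. The calls did not follow the values. Prednisolone animals 5 and 6 were not called at -6.19 and -6.15, while animals 2 and 4 were called at -6.64 and -6.63. The MRPS7 spots read 4.3 to 55.5 units. The measured means of MRPS7 were -7.09 ± 0.432 (SD) in controls and -6.35 ± 0.451 in prednisolone animals. The groups overlapped, with the highest control at -6.52 and the lowest prednisolone animal at -7.09. No fold change is given, since both means include arrays on which the probe was not well above background. This gene was singled out after its values were seen.

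Mean values over the members did not separate the groups. Over the 18 members with a value in every animal and without DAP3, the mean was 0.96 ± 0.070 (SD, n = 7) in controls, from 0.89 to 1.06, and 0.95 ± 0.056 (n = 8) in prednisolone animals, over the same range. By slide it was 1.01, 0.91, 0.93 and 0.99.

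The 54 family genes tested under other file names were likewise split between the directions. There were 24 higher and 30 lower with prednisolone, with a median of -0.0098. None passed (0 with limma), 1 had an unadjusted p under 0.05 (MRPS10, 0.19 ± 0.084 SE) against 7.08% of all probes, and the groups overlapped for each of the 54, where 0.112% of all probes had groups apart. Their highest values were those of MRPS2 (0.25 ± 0.17, and 0.47 with slide as a block) and MRPL15 (0.24 ± 0.13).

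The lowest of these 54 was MRPS12, a protein of the decoding centre, at -0.39 ± 0.23 (SE). Its sign turned with the slides, to 0.092 when slide was a block and 0.026 when slide 4 was left out. Of the 54, 8 differed between slide 4 and the other prednisolone arrays (limma, adjusted p under 0.05, against the 15.8% above), MRPS33 by -1.87 and MRPS12 by -1.10. Over all 74 family genes tested, DAP3, chosen with this difference in view, had the highest pooled value. With slide as a block MRPS2 was above it (0.47 against 0.38), and without slide 4 MRPS33 was (0.42 against 0.35).

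Whether DAP3 moved with the other subunits was then described across the 15 animals. Its Pearson r with the mean of the 18 other members was 0.21 over all animals (Spearman rho 0.16) and 0.22 without control 5 and prednisolone animal 2, which lay farthest out in that mean. With the group means removed it was 0.40 (rho 0.31), with slide means removed 0.31 (rho 0.21) and with both removed 0.48 (rho 0.50). The points share arrays and scaling. With normexp it was -0.39, and 0.54 once the 12 spots were left out. No p-value is attached, since the members were chosen with these data in view.

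**Figure D3:**
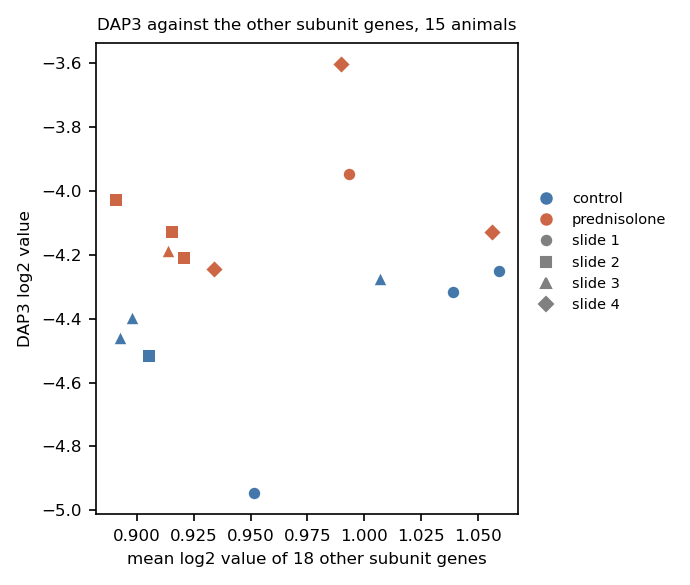
DAP3 value (vertical axis) against the mean of 18 other subunit genes (horizontal axis), both as log2 signal relative to the array's 75th percentile, 1 point per animal. Colour gives the group and shape the slide. The prednisolone animals lie above the controls over the same range of the mean, 0.89 to 1.06, and Pearson r over the 15 points is 0.21.

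The relation was uneven between genes. With group means removed, DAP3 had a positive r with 15 of 18 members and a median r of 0.10, against 47.1% positive and a median of -0.016 over all tested probes. The count of positive members was 10 over all animals as they stood (48.9% of all probes), 9 with slide means removed (53.4%) and 12 with both removed (55.5%). MRPL2, a protein of the core of the large subunit, had the highest (0.65), followed by MRPL11 (0.43), MRPS26 (0.39) and MRPS17 (0.31). The lowest were MRPL32 (-0.24), MRPL16 (-0.14), MRPL12 (-0.023) and MRPL13 (0.00046). With the mean of the 54 genes under other names r was 0.57.

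The 8 genes whose values followed DAP3 most closely were taken by r with group means removed, over all tested probes with a symbol. They were SFSWAP (0.84), SRPRA (0.80), RCC1 (0.78), BIN1 (0.77), SMDT1 (0.77), MUTYH (0.74), KCNAB2 (0.73) and GATA4 (0.72). These genes were picked for the highest r over all those probes, so the size of r describes how they were selected. Of these, SFSWAP regulates splicing and SRPRA is the receptor subunit for the signal recognition particle. SMDT1 is a part of the mitochondrial calcium uniporter.

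The other subunit genes did not move as 1 block either. The median r over their 153 pairs was 0.11, against 0.0066 over pairs of all 11701 tested genes, and 89 pairs were positive. MRPS17 and MRPS36 had 0.91, which was 0.63 with group and slide means removed. MRPL16 and MRPL18 had -0.86, which was -0.39 in that case. Both pairs are among the genes that differed on slide 4. MRPS18B and MRPS36 had -0.89 and -0.90, so this opposite pattern did not depend on group or slide means. MRPS36 is counted here by its name. Without it, MRPS17 and MRPS18B had -0.79 pooled and -0.67 with group and slide means removed. MRPL13 and MRPL32 had 0.57 and 0.90, a relation that was closer within slides.

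**Figure D4:**
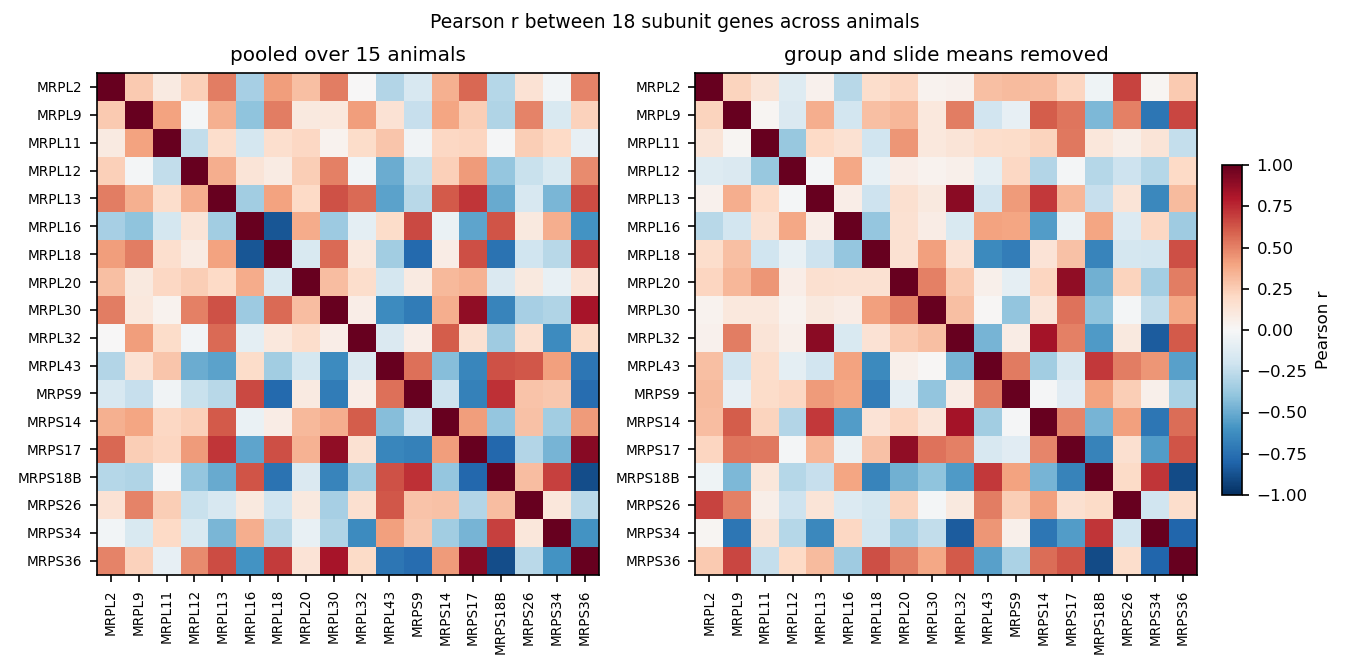
Pearson r between 18 subunit genes across 15 animals, pooled (left) and with group and slide means removed (right), on a colour scale from -1 (blue) to 1 (red). Positive and negative blocks stand side by side, such as MRPS17 with MRPS36 at 0.91 and MRPS18B with MRPS36 at -0.89 in the pooled values.

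The other genes of mitochondrial translation were read from lists, none of which had a member that passed (limma adjusted p under 0.05). The list of mitochondrial translation factors had 8 higher and 3 lower of 11 (median 0.051, and 0.022 with slide as a block). It also held the transfer RNA modifying enzymes GTPBP3, MTO1 and TRMU and the membrane insertase OXA1L, all on the higher side. The initiation factor MTIF2 was at 0.26 ± 0.12 (SE). Assembly factors of the ribosome had 8 higher and 12 lower of 20, with a median of -0.033 that turned to 0.042 with slide blocked and 0.045 when slide 4 was left out. MTERF4 was at 0.20 ± 0.064 and the methyltransferase-like METTL17 at 0.25 ± 0.14 (0.43 with slide as a block). Aminoacyl-tRNA synthetases of mitochondria had 5 higher and 10 lower of 15 (median -0.0072), with SARS2, which charges serine transfer RNA, at -0.24 ± 0.093 (-0.079 with slide blocked and -0.12 when slide 4 was left out).

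Genes that copy and transcribe mitochondrial DNA had 7 higher and 2 lower of 9 (median 0.026), among them POLG2, the accessory subunit of its polymerase, at 0.15 ± 0.076 (SE; 0.088 with slide as a block). Regulators of mitochondrial biogenesis had 3 higher and 5 lower of 8 (median -0.017). The glucocorticoid receptor NR3C1 was -0.069 ± 0.14, and 0.015 without slide 4. Ribosomal proteins of the cytosol had 43 higher and 36 lower of 79 (median 0.0075, which turned to -0.080 with slide blocked and -0.077 when slide 4 was left out). Of the respiratory chain and ATP synthase genes, 22 were higher and 59 lower of 81 (median -0.043), a more one-sided split than in the ribosome genes, whose difference was not tested.

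Across animals, with group means removed, the mean of the 18 subunit genes followed that of the respiratory chain (r = 0.74), the translation factor list (0.69) and the cytosolic ribosome (0.67). It also moved with cell type markers. For the 10 thymocyte markers r was 0.58, for the 5 adipocyte markers tested -0.72 and for the 7 macrophage markers -0.64. DAP3 had 0.62 with the thymocyte markers and -0.13 with the adipocyte markers.

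The mean of the thymocyte markers ran from 2.74 to 2.96 in controls and from 2.86 to 3.08 in prednisolone animals, with 8 of 10 higher. The adipocyte markers ran from -3.44 to -0.87 and from -3.55 to -0.14, with 5 of 5 higher, and ADIPOQ and LEP were above background on 6 and 1 of 15 arrays. The macrophage markers ran from -1.52 to -0.68 and from -1.76 to -0.83, with 7 of 7 lower. Their median difference was -0.30, and -0.27 with slide as a block. Without slide 4 it was -0.10, and CSF1R (0.0032) and CD68 (0.052) were then on the higher side. The part of these cell types in the values of DAP3 and the subunit genes was not tested.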

How the data were processed

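Deposited spot intensity values came from Feature Extraction 9.5.1.1, with background subtracted and no scaling between arrays, per the file headers. The flags used are the scanner software's calls per spot, per the file headers. A second table by the authors gives intensity in 44396 rows, with 5288 to 8740 empty cells in a column. Column medians lay between 188.5 and 274.1, and the rank correlation with the signal was at least 0.9996. Its scale is linear and its direction that of the signal, and its centring is unknown. R 2.11.1 is named in the submitters' processing notes, and the normalization is not given in the sources used here.

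From each array's 42990 bovine spots, the processed signal was taken to log2 and the 75th percentile subtracted. Outlier spots were left out, the spots of a probe were averaged, and a probe was kept where 7 or more of 15 arrays had it well above background. Symbols for 16414 probes came from 9716 gene numbers, 3398 accessions, 3292 descriptions and 8 gene names, looked up in a RefSeq table of the ARS-UCD2.0 assembly, and the brightest probe of a gene was used. No probe coordinates were used. Groups follow the treatment label, and replicate numbers follow sample order.

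The comparisons used limma 3.58.1 (R 4.3.3, statmod 1.5.0), adjusting p-values over all kept probes. The calculation was tested on simulated data. The members, gene lists and tests were chosen with earlier results of these data known. Named were DAP3, the 6 members with the highest and the 6 with the lowest differences, the 4 with the largest and the 4 with the smallest residual SD, the 4 with the highest and the 4 with the lowest r with DAP3, up to 2 genes of each list with the smallest p, and the 8 genes most like DAP3. Members outside this rule (MRPS7, MRPS9, MRPS18B and MRPS34) are given so that all are accounted for. The alternatives were other scalings, background corrections, filters, variance models, slide as a block, the authors' values, outlier spots kept, all probes of a gene averaged, members by updated symbol and each animal left out. Leaving out slide 4, the slide contrasts, removing both group and slide means, and normexp with no spot whose local background exceeded 200 were chosen after seeing the data.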

Additional observations from a re-analysis of the deposited data

Results flagged for a closer look

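Within a group, the gap of the highest or lowest animal to its neighbour was compared with the group's range. Of 42 groups of values tested (the members and their mean, in each treatment group), 4 had an animal that stood apart, where chance flags about 1 in 20 groups. For DAP3, control 1 lay at -4.95 with the nearest control at -4.52, and prednisolone animal 4 lay at -3.60 with the nearest at -3.95. Without control 1 the DAP3 difference was 0.31, the lowest value among the runs that left out 1 animal. For MRPL11, prednisolone animal 4 lay at 1.95 with the nearest at 1.84. For MRPS34, prednisolone animal 2 lay at 0.51 with the nearest at 0.90. Prednisolone animals 2 and 4 were both on slide 4.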

How the results depend on the processing

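The count of members passing was 0 in all 31 settings, and the median difference of the members other than DAP3 stayed between -0.031 and 0.023. Calls over all probes rose from 0 to 1 with quantile normalization, and ranged from 0 to 3 when 1 animal was left out (3 without prednisolone animal 1). DAP3 kept its sign in 29 of 30 settings and ranged from 0.31 to 0.43 when 1 animal was left out. It was -0.53 with normexp, where the median of all probes was -0.21, and 0.018 with normexp without the 12 spots of high local background (all probes -0.061). With the same 12 spots left out and no offset it was 0.19 (all probes -0.033). The r of DAP3 with the other members was -0.39 with normexp and 0.16 to 0.29 when 1 animal was left out. The number of other members on the higher side was 6 with normexp without those spots (14 of 19 were above that setting's median over all probes), 34 of 73 with members by updated symbol, and 7 to 11 of 19 when 1 animal was left out. In each normexp setting the cause of the shift beyond these spots was not tested. No paired analysis was possible because replicate numbers come from sample order alone. Dim signal limits DAP3 and MRPS7, and slide 4 holds no control, so that slide and treatment cannot be told apart on its 3 arrays. All arrays were scanned on 1 day.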

Other observations

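Markers of the other cell types that a thymus sample can hold were read in the same way, and none had a member that passed (limma adjusted p under 0.05). Fibroblast markers had 6 of 7 higher with prednisolone (median 0.13), B cell markers 5 of 6 (0.25), skeletal muscle markers 6 of 6 (0.30, and -0.27 with slide as a block) and brown adipocyte markers 2 of 3 (0.0062). Erythroid markers had 6 of 6 lower (-0.36, and 0.030 with slide as a block), and thymic epithelium markers 5 of 8 higher (0.018). With group means removed, the r of the 18 subunit genes' mean with these lists was between -0.23 (fibroblasts and brown adipocytes) and 0.22 (B cells). The 4 proteins of the mitochondrial ribosome that carry no ribosomal name, among them GADD45GIP1 and AURKAIP1, had 3 higher and 1 lower (median 0.012).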
